A study of Rattus norvegicus with 4 samples.

Results

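The Ccr2+ Lyz2-high cells of rat subcutaneous fascia were 518 of 13820 fascia cells, 262 of 6812 in fascia replicate 1 and 256 of 7008 in fascia replicate 2. They were chosen by raw counts of unique molecular identifiers (UMIs, which count distinct RNA molecules). Each had at least 1 UMI of Ccr2 and at least 10 of Lyz2. Each also had fewer than 5 UMIs of C1qa, C1qb and C1qc together and fewer than 5 of Slpi, with 0 of Flt3 and 0 of Cd3d, Cd3e and Cd3g. The study compared the cells of subcutaneous fascia of the abdominal midline with those of skin in rats of genotype WT, with 2 droplet libraries of each tissue and 37722 cells kept in all. No treatment, age, sex or strain is given, and nothing in the labels ties a library to an animal, so p-values measure the spread between libraries only. The tissue was digested with collagenase and elastase, red cells were lysed and dead cells were removed before capture.

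Ccr2 is the receptor for the chemokine Ccl2 and marks cells that leave the blood for tissue, classical monocytes above all. Lyz2 encodes lysozyme, made by monocytes, macrophages and neutrophils. In tissue, monocytes can become macrophages, which clear debris and carry scavenger receptors and complement C1q, or cells rich in MHC class II, the molecules that show antigen to helper T cells. Dendritic cells, whose growth depends on the receptor Flt3, carry MHC class II at high levels too.

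Barcodes with fewer than 500 genes or with over 20% of their UMIs from mitochondrial genes were left out. The Ccr2+ Lyz2-high cells had a median of 13151.5 and 13005 UMIs and of 3417.5 and 3231.5 genes per cell in fascia replicates 1 and 2, with 3.46% and 3.74% mitochondrial UMIs. Scrublet, which simulates doublets, marked 9 and 12 of them. No barcode was shared between the Ccr2+ Lyz2-high cells of any 2 libraries. Among all kept cells, each pair of libraries shared between 16 and 35 barcodes, and the fascia pair shared 19. Whether any of these belonged to a Ccr2+ Lyz2-high cell in 1 library of the pair was not tested. They were set against 3 other gated populations of the same libraries. C1q-high macrophages (at least 20 C1q UMIs and 10 of Lyz2) numbered 561 and 602, Flt3+ cells (at least 1 Flt3 UMI, fewer than 5 of C1q) 241 and 749, and Slpi+ Fcna+ macrophages 382 and 186. Levels below are UMIs of a gene per 1000000 UMIs (CPM) summed over the cells of a population, given for fascia replicate 1 and then replicate 2 unless said otherwise.

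The working label of these cells was monocyte, but some genes that define one were low in them, while others were not. Of 24 classical monocyte genes tested, 10 were higher and 3 lower than in C1q-high macrophages, against 16.4% and 16.9% of all genes. Treml4, of the non-classical list, stood at 232 and 170 CPM. Ly6c, the surface protein of classical monocytes, stood at 13.8 and 117 CPM, below the 31.8 and 121 CPM of fascia cells without a UMI of the leukocyte gene Ptprc. In cells thinned to 5000 UMIs, with 8 and 9 shallower Ccr2+ Lyz2-high cells and 19 and 39 macrophages left out, 2.36% and 15.8% of the Ccr2+ Lyz2-high cells had a Ly6c UMI (2.29% and 17.2% before thinning), against 0.923% and 1.60% of C1q-high macrophages (2.14% and 2.99% before thinning). Cx3cr1, a receptor of non-classical monocytes, was at 1.06 and 13.5 CPM. The alarmin gene S100a9, high in monocytes and neutrophils, had 0.531 and 2.70 CPM. MHC class II RNA was abundant, with Cd74, the invariant chain, at 31339 and 25077 CPM. Genes of dendritic cells were mixed. Of 18 tested, 7 were higher and 2 lower than in C1q-high macrophages, against 16.4% and 16.9% of all genes. Ccl17 stood at 378 and 723 CPM and Cd80 at 208 and 264 CPM. Zbtb46 had 11.7 and 18.3 CPM, Irf8 0 and 1.8 CPM and Ccr7 0.265 and 0.30 CPM. In Flt3+ cells Zbtb46 had 49.4 and 81.4 CPM and Irf8 16.5 and 23.1 CPM. The cells are therefore called by the genes of their rule. The heat map of selected genes shows these levels in all 4 populations.

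**Figure D1:**
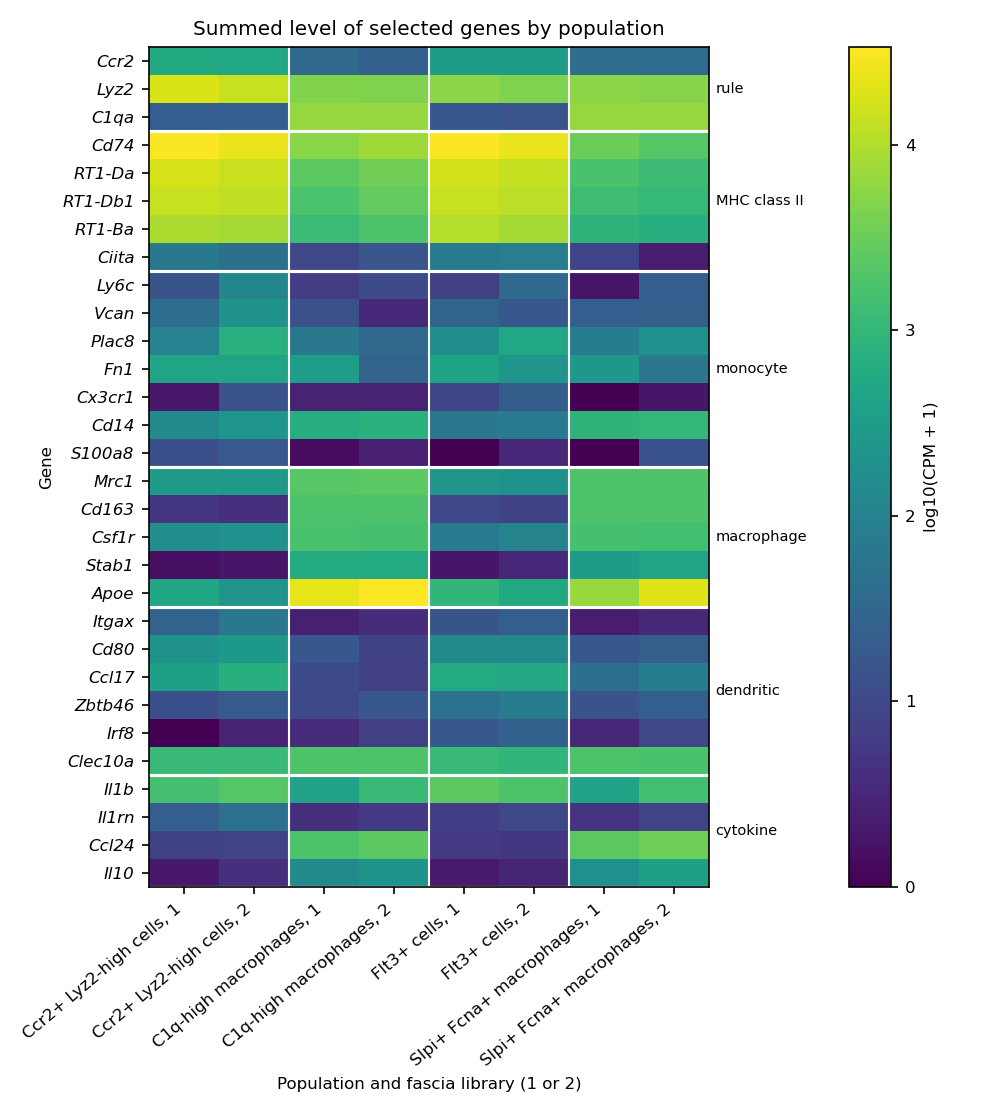
Heat map of log10(CPM + 1) of selected genes (rows, grouped by the role named at the right) in 4 gated fascia populations, each with fascia libraries 1 and 2 (columns). The Ccr2+ Lyz2-high cells share high Cd74 and RT1-Da with the Flt3+ cells, have Cd163 at 4.25 and 3.30 CPM, and have Ly6c at 13.8 and 117 CPM.

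The genes of the rule are given as a description. Ccr2 had a median of 7 UMIs per cell (quartiles 4 to 11) in fascia replicate 1 and of 6 (3 to 9) in replicate 2. Lyz2 had a median of 261.5 UMIs (201.5 to 345.75) in replicate 1 and of 171.5 (75.5 to 263) in replicate 2. C1q was at 0 UMIs in 140 and 153 of the cells and at 1 UMI in 79 and 67. The Lyz2 bound cut through few cells, with 0 and 3 members at 10 or 11 UMIs and 2 and 5 cells just outside at 8 or 9. Cells that met every other criterion and had exactly 0 Ccr2 UMIs numbered 19 and 71, beside 17 and 26 members with exactly 1. S100a9 was at 0.531 and 2.70 CPM in the Ccr2+ Lyz2-high cells, against 3822 and 19407 CPM in those 19 and 71 cells. The Flt3 bound cut through the most cells. Another 177 and 514 cells met every criterion except Flt3, with a median of 3 Flt3 UMIs in each library, and had Cd74 at 35681 and 27359 CPM.

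Hardly any such cells were found in skin. They made up 3.85% (262 of 6812, exact 95% binomial interval 3.40 to 4.33) and 3.65% (256 of 7008, 3.23 to 4.12) of fascia cells, against 0 of 7460 and 4 of 16442 skin cells. A count of 0 of 7460 allows a share of up to 0.0402%, and 4 of 16442 is 0.0243% (0.0066 to 0.0623). These intervals cover counting error only. Of cells with a Ptprc UMI they were 12.6% and 8.12% in fascia, against 0 of 422 and 4 of 619 in skin. With 2 libraries per tissue the two-sided exact permutation test gave p = 0.333, the smallest it allows, for a difference of 3.74 percentage points. Fascia cells were deeper, with a median of 12908 and 10452 UMIs, against 9039.5 and 2352.5 in skin. When every cell was thinned to 2000 UMIs before the rule was applied, the shares were 3.61% and 3.59% in fascia, and 0 of 7177 and 0 of 9366 in skin. Few skin cells met the macrophage gates either, on unthinned counts. Slpi+ Fcna+ macrophages numbered 0 and 0 in skin, against 382 and 186 in fascia. C1q-high macrophages numbered 34 and 18, against 561 and 602, and Flt3+ cells 107 and 74, against 241 and 749.

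MHC class II is the group that carries most of what follows. The promoters of its genes are known for an X box and a Y box at a fixed distance, which together recruit the complex that holds the coactivator Ciita. The sequences below are stretches of the RefSeq promoters of GRCr8, 250 bases before to 50 after the gene start, printed along the gene's strand with the X and Y motifs in capitals, to show that pair in genes whose level set these cells apart from the macrophages.
RT1-Da (chr20:4515320-4515382, + strand): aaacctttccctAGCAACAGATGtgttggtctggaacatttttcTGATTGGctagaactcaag
RT1-Db1 (chr20:4560226-4560287, - strand): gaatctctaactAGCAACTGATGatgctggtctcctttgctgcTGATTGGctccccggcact
RT1-Bb (chr20:4604163-4604224, - strand): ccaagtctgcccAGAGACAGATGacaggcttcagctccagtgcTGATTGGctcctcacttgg
RT1-DOb (chr20:4627590-4627649, - strand): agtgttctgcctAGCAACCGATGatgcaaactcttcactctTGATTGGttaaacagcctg
The motifs searched on both strands were AGNNAC directly followed by NGATG for the X box, and TGATTGG for the Y box. Of 8 promoters found for the 10 MHC class II genes, the X motif occurred in 4, the Y motif in 7 and both in the 4 shown, where the starts of both motifs lay 32, 31, 31 and 29 bases apart in the order printed. Among all 33469 promoters of the table, 0.95% held the X motif, 7.06% the Y motif and 0.0896% both. The Cd74 promoter held neither in this window. A match of letters is a description of the sequence.

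Single cells carried MHC class II as a large part of their RNA. In cells thinned to 5000 UMIs, the 10 genes of the list, Cd74 and Ciita included, made up a median of 8.16% (quartiles 6.82 to 9.87) and 7.0% (4.81 to 8.53) of the UMIs of a Ccr2+ Lyz2-high cell. The median was 0.10% and 0.14% in C1q-high macrophages, 8.80% and 6.97% in Flt3+ cells and 0.08% and 0.06% in Slpi+ Fcna+ macrophages. In the Ccr2+ Lyz2-high cells the shares ran from 0.06% to 16.6% in replicate 1 and from 0.02% to 15.1% in replicate 2, and single C1q-high macrophages reached 13.6% and 14.6%. The plot of these shares per cell shows the Ccr2+ Lyz2-high cells at the level of the Flt3+ cells in both libraries, with no test because cells are not replicates.

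**Figure D2:**
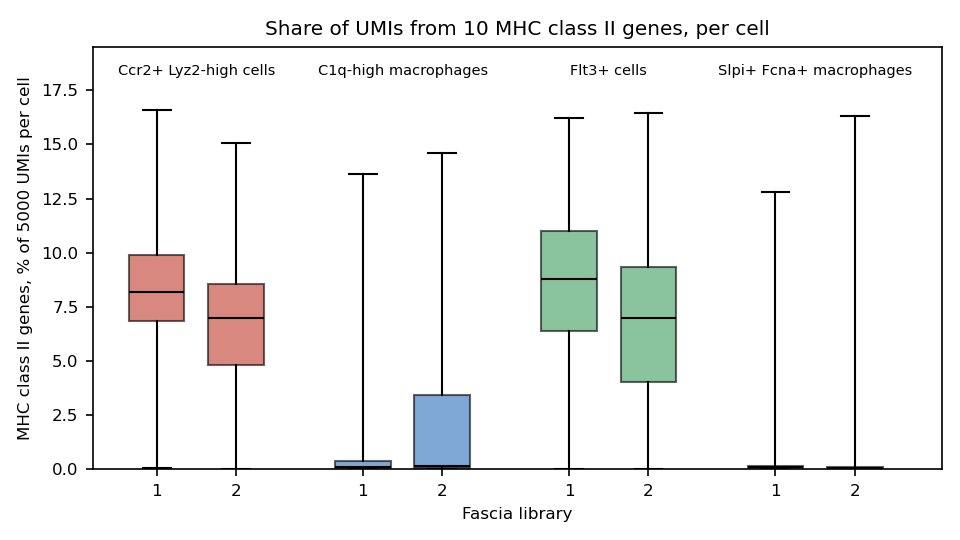
Share of the UMIs of a cell that came from 10 MHC class II genes (y axis, % of 5000 UMIs) in 4 gated populations and fascia libraries 1 and 2 (x axis); boxes show quartiles and medians, whiskers the lowest and highest cell. The medians of the Ccr2+ Lyz2-high cells are 8.16% and 7.0%, against 0.10% and 0.14% in C1q-high macrophages.

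The first comparison asked how these cells differ from the C1q-high macrophages of the same fascia libraries. MHC class II genes were higher and macrophage scavenger and lysosome genes lower. Counts were summed per library and population and compared with edgeR's quasi-likelihood test with library as a block, and genes with a Benjamini-Hochberg adjusted p under 0.05 were called. Since the populations were chosen by C1q, Ccr2 and Lyz2, no test is given for the genes of the rules, and the tests state only how repeatably other genes differed over the 2 libraries. Of 12272 genes tested, 2015 (16.4%) were higher and 2070 (16.9%) lower in the Ccr2+ Lyz2-high cells, which is 33.3% in either direction. DESeq2 called 3091. The median log2 change over all genes was -0.03.

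All 10 MHC class II genes tested were higher in the Ccr2+ Lyz2-high cells, against 16.4% of all genes, with a median log2 change of 2.62. RT1-Da, the alpha chain of the DR-like molecule, had 17952 and 14843 CPM in the Ccr2+ Lyz2-high cells, against 2455 and 3479 CPM in C1q-high macrophages (log2 change 2.58, SE 0.23, adjusted p = 0.000219). Its beta chain RT1-Db1 had 14252 and 12670.0 CPM in the Ccr2+ Lyz2-high cells, against 1792 and 2712 CPM in C1q-high macrophages (log2 change 2.71, SE 0.23, adjusted p = 0.000187). Both genes lay far above the macrophage level in both libraries. Cd74 had 31339 and 25077 CPM in the Ccr2+ Lyz2-high cells, against 5206 and 7511 CPM in C1q-high macrophages (log2 change 2.25, SE 0.26, adjusted p = 0.000667). RT1-DOb, a chain of the molecule that restrains peptide loading, had the largest log2 change of the list and low levels, with 14.3 and 18 CPM in the Ccr2+ Lyz2-high cells, against 0.405 and 1.54 CPM in C1q-high macrophages (log2 change 4.2, SE 0.41, adjusted p = 0.000326, and 3.62 and 5.07 without fascia replicates 1 and 2). Ciita, the coactivator of all these genes, had 66.9 and 46.2 CPM in the Ccr2+ Lyz2-high cells, against 8.63 and 14.8 CPM in C1q-high macrophages (log2 change 2.41, SE 0.38, adjusted p = 0.00279). The smallest log2 changes were those of the peptide loaders RT1-DMa, 1.66, and RT1-DMb, 1.53.

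Genes of resident macrophages went the other way. Of 18 tested outside the rules, 17 were lower, 0 higher and 1 was not called, against 16.9% of all genes lower, and the median log2 change was -4.04. Cd163, the scavenger receptor of haemoglobin and haptoglobin, had 4.25 and 3.3 CPM in the Ccr2+ Lyz2-high cells, against 1818 and 1828 CPM in C1q-high macrophages (log2 change -8.77, SE 0.19, adjusted p = 1.4e-06). Stab1, the scavenger receptor stabilin-1, had 0.531 and 0.901 CPM in the Ccr2+ Lyz2-high cells, against 598 and 585 CPM in C1q-high macrophages (log2 change -9.54, SE 0.31, adjusted p = 5.4e-06). Both were close to absent in the Ccr2+ Lyz2-high cells. Mrc1, the mannose receptor, had 308 and 268 CPM in the Ccr2+ Lyz2-high cells, against 2277 and 2402 CPM in C1q-high macrophages (log2 change -2.89, SE 0.13, adjusted p = 1.8e-05). Csf1r, the receptor for the macrophage growth factor Csf1, had 165 and 192 CPM in the Ccr2+ Lyz2-high cells, against 1711 and 1605 CPM in C1q-high macrophages (log2 change -3.09, SE 0.16, adjusted p = 2.5e-05). Mrc1 and Csf1r were thus lower without being lost, and 50.8% and 51.4% of the cells had a Csf1r UMI after thinning, against 98.7% and 98.9% of C1q-high macrophages, or 80.5% and 80.9%, against 99.8% and 99.8%, before thinning. The lipid carrier Apoe (-6.18, SE 0.73), the selenium carrier Selenop (-6.86, SE 0.16), the lipid receptor Trem2 (-7.37, SE 0.36, and -6.74 and -8.38 without fascia replicates 1 and 2) and Mertk (-5.09, SE 0.28), which takes up dying cells, were lower too, with log2 changes as given.

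For each list of this paragraph, the shares over all genes were 16.4% higher and 16.9% lower. The lysosome list had 2 of 22 genes higher and 18 lower, with a median log2 change of -2.04. Ctsb, the protease cathepsin B, had 365 and 304 CPM in the Ccr2+ Lyz2-high cells, against 5118 and 4769 CPM in C1q-high macrophages (log2 change -3.76, SE 0.20, adjusted p = 2.6e-05). Lgmn, the protease legumain, had 63.4 and 80.5 CPM in the Ccr2+ Lyz2-high cells, against 1185 and 1187 CPM in C1q-high macrophages (log2 change -3.92, SE 0.13, adjusted p = 7.2e-06). Both lysosomal proteases were lower in each library. The higher members were the acid lipase Lipa (1.61) and cathepsin Z, Ctsz (0.46). Interferon response genes had 2 of 16 higher and 12 lower, with a median of -1.35. The antiviral GTPase Mx1 (-2.28, SE 0.28) and Ifit3 (-2.51, SE 0.47, and -1.92 and -3.09 without fascia replicates 1 and 2) were among the lower ones and Usp18 (1.5) and Gbp5 (1.25) were the higher ones, as log2 changes. Of 15 iron and lipid handling genes 2 were higher and 10 lower, among them the haem-degrading enzyme Hmox1 (-3.92, SE 0.46, and -3.21 and -5.08 without fascia replicates 1 and 2) and Ltc4s (-8.15, SE 0.19), which makes leukotriene C4. Complement genes other than C1q divided into 5 higher and 5 lower of 13, with factor B, Cfb (-4.63, SE 0.37), among the lower ones.

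Of 26 chemokine and cytokine genes 5 were higher, or 19.2%, near the 16.4% of all genes, and 10 were lower, or 38.5%, against 16.9% of all genes. Ccl24, an eotaxin that attracts eosinophils, had 6.64 and 7.51 CPM in the Ccr2+ Lyz2-high cells, against 1860.2 and 2409 CPM in C1q-high macrophages (log2 change -8.09, SE 0.19, adjusted p = 1.5e-06). Il10, an anti-inflammatory cytokine, had 1.06 and 3.3 CPM in the Ccr2+ Lyz2-high cells, against 146 and 223 CPM in C1q-high macrophages (log2 change -6.32, SE 0.23, adjusted p = 7.9e-06). Both were near 0 in the Ccr2+ Lyz2-high cells and well expressed in the macrophages of each library. Il1rn, the interleukin-1 receptor antagonist, had 21.8 and 47.1 CPM in the Ccr2+ Lyz2-high cells, against 3.24 and 4.78 CPM in C1q-high macrophages (log2 change 3.18, SE 0.25, adjusted p = 0.000122). The epidermal growth factor family member Areg had 17 and 27.3 CPM in the Ccr2+ Lyz2-high cells, against 1.75 and 3.4 CPM in C1q-high macrophages (log2 change 3.24, SE 0.55, adjusted p = 0.00406). Il1b, an inflammatory cytokine, had 1549 and 2146 CPM in the Ccr2+ Lyz2-high cells, against 413 and 1113 CPM in C1q-high macrophages and was not called (adjusted p = 0.0542 by edgeR). Neither were Ccl2, the ligand of Ccr2, with 1441 and 3084 CPM in the Ccr2+ Lyz2-high cells, against 1433 and 3889 CPM in C1q-high macrophages, or Tnf, with 4.51 and 24.6 CPM in the Ccr2+ Lyz2-high cells, against 13.8 and 28.1 CPM in C1q-high macrophages.

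Dendritic cell genes had 7 of 18 higher and 2 lower, against 16.4% and 16.9% of all genes. Ccl17, a chemokine for Ccr4+ T cells, had 378 and 723 CPM in the Ccr2+ Lyz2-high cells, against 9.31 and 6.17 CPM in C1q-high macrophages (log2 change 6.2, SE 0.44, adjusted p = 8.5e-05, and 6.99 and 5.47 without fascia replicates 1 and 2). Ccl22, which binds the same receptor, had 5.31 and 32.7 CPM in the Ccr2+ Lyz2-high cells and 0 UMIs in C1q-high macrophages, at least 84.2-fold higher with 3 counts over the group as the floor. Both chemokines were higher in each library. Itgax, the integrin CD11c, had 26.3 and 60.9 CPM in the Ccr2+ Lyz2-high cells, against 1.48 and 2.78 CPM in C1q-high macrophages (log2 change 4.43, SE 0.25, adjusted p = 3.6e-05). The co-stimulatory ligand Cd80 had 208 and 264 CPM in the Ccr2+ Lyz2-high cells, against 15.6 and 6.64 CPM in C1q-high macrophages (log2 change 4.52, SE 0.34, adjusted p = 0.000109, and 5.43 and 3.86 without fascia replicates 1 and 2), and the transcriptional regulator Id2 had 1071 and 649 CPM in the Ccr2+ Lyz2-high cells, against 70.5 and 33.2 CPM in C1q-high macrophages (log2 change 4.21, SE 0.29, adjusted p = 7.4e-05). The lower members were Fscn1, an actin-bundling protein of mature dendritic cells (-6.54, SE 0.33, and -8.03 and -5.85 without fascia replicates 1 and 2), and the lectin Clec10a (-0.52), as log2 changes.

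Classical monocyte genes had 10 of 24 higher and 3 lower, against 16.4% and 16.9% of all genes. Their S100 members S100a6 (2.24), S100a11 (2.28) and S100a4 (1.18) were higher, as log2 changes, and S100a6 was found in 97.6% and 96.8% of thinned cells, against 41% and 35% of C1q-high macrophages, or 99.6% and 98.8%, against 57.6% and 44.5%, before thinning. Ly6c, Vcan (the matrix proteoglycan versican) and Plac8 were called higher as well, with their highest levels in a small subcluster described further on. Ly6c had 13.8 and 117 CPM in the Ccr2+ Lyz2-high cells, against 5.53 and 9.88 CPM in C1q-high macrophages (log2 change 2.8, SE 0.57, adjusted p = 0.00927, and 3.69 and 1.45 without fascia replicates 1 and 2). Without that subcluster its log2 change was -0.04 (adjusted p = 0.974 by edgeR), and the call was also lost without the library block (adjusted p = 0.15). Vcan (4.1, SE 0.95, and 6.7 and 1.81 without fascia replicates 1 and 2) was not called without the subcluster either (adjusted p = 0.0573). The lower members were F13a1, the A chain of coagulation factor XIII, with 6.37 and 4.2 CPM in the Ccr2+ Lyz2-high cells, against 2172 and 1963 CPM in C1q-high macrophages (log2 change -8.46, SE 0.25, adjusted p = 3.6e-06), the endotoxin co-receptor Cd14 (-1.81, SE 0.17) and Ifitm3 (-0.80). Of 14 non-classical monocyte genes 3 were higher, or 21.4%, against 16.4% of all genes, among them Treml4 (3.31, SE 0.12) and Adgre4 (3.81, SE 0.20), and 2 lower. Nr4a1, the transcription factor that non-classical monocytes need, was not called (log2 change 0.18, SE 0.41, adjusted p = 0.772).

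Sugar metabolism and trafficking lists had more members higher than lower, while 16.4% of all genes were higher and 16.9% lower. Of 16 glycolysis and hypoxia genes 9 were higher and 3 lower, with a median log2 change of 0.66. The glucose transporter Slc2a1 had 22.3 and 71.5 CPM in the Ccr2+ Lyz2-high cells, against 4.59 and 7.56 CPM in C1q-high macrophages (log2 change 3.0, SE 0.42, adjusted p = 0.00174, and 3.36 and 2.4 without fascia replicates 1 and 2). Of 19 adhesion and migration genes 10 were higher and 2 lower. Itgb7, the integrin chain that pairs with Itga4 for homing to mucosa, had 257 and 219 CPM in the Ccr2+ Lyz2-high cells, against 15.2 and 6.17 CPM in C1q-high macrophages (log2 change 4.63, SE 0.27, adjusted p = 4.0e-05, and 5.26 and 4.21 without fascia replicates 1 and 2). Both genes were higher in each library. Fc receptor and innate sensor genes had 2 of 19 higher and 8 lower, with the beta-glucan receptor Clec7a higher at 78.8 and 102 CPM in the Ccr2+ Lyz2-high cells, against 6.34 and 3.55 CPM in C1q-high macrophages (log2 change 4.31, SE 0.42, adjusted p = 0.000335, and 4.95 and 3.76 without fascia replicates 1 and 2). Myeloid transcription factors divided into 6 higher and 7 lower of 24, with Runx3, a factor of lymphocytes and skin dendritic cells, higher at 61.8 and 124 CPM in the Ccr2+ Lyz2-high cells, against 7.28 and 11 CPM in C1q-high macrophages (log2 change 3.44, SE 0.30, adjusted p = 0.000195). Of 17 cell cycle genes 2 were higher, or 11.8%, below the share of all genes, and 0 lower. Of 13 tissue handling response genes 3 were higher and 3 lower, or 23.1% each.

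Markers of other cell types were measured beside these results, in which 16.4% of all genes were called higher and 16.9% lower. T and NK cell markers summed to 257 and 284 CPM in the Ccr2+ Lyz2-high cells, against 47.5 and 58.8 CPM in C1q-high macrophages, with 3 of 8 called higher and 1 lower, while the Cd3 genes were at 0 by the rule. Fibroblast markers summed to 1897 and 509 CPM, against 2743 and 663 CPM, with 0 of 8 called, and neutrophil markers to 24.4 and 33.6 CPM, against 5.26 and 9.26 CPM, with 2 of 3 called higher. Of these, S100a8 lost its call by DESeq2 (adjusted p = 0.0685) and without the library block (adjusted p = 0.127), and Csf3r lost its call without the Vcan and Ly6c subcluster (adjusted p = 0.0675 by edgeR). Their part in the differences was not tested.

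Among all genes, those with the largest changes included adaptor and receptor genes. Dok6, a docking protein of receptor tyrosine kinases, had 102 and 122 CPM in the Ccr2+ Lyz2-high cells, against 1.35 and 0.463 CPM in C1q-high macrophages (log2 change 6.99, SE 0.30, adjusted p = 1.4e-05, and 7.96 and 6.3 without fascia replicates 1 and 2). Cd226, an adhesion receptor of lymphocytes and myeloid cells, had 377 and 299 CPM in the Ccr2+ Lyz2-high cells, against 11.2 and 2.93 CPM in C1q-high macrophages (log2 change 5.74, SE 0.33, adjusted p = 3.5e-05, and 6.77 and 5.2 without fascia replicates 1 and 2). Napsa, the aspartic protease napsin A, had 432 and 563 CPM in the Ccr2+ Lyz2-high cells, against 22.7 and 15.6 CPM in C1q-high macrophages (log2 change 4.8, SE 0.36, adjusted p = 0.000103). All 3 were higher in both libraries, and the membrane protease Adam8 (4.81, SE 0.31, and 5.78 and 4.32 without fascia replicates 1 and 2), the zinc-sensing receptor Gpr39 (4.88, SE 0.34, and 5.92 and 4.26 without fascia replicates 1 and 2) and Olfm1 (5.29, SE 0.32) followed, as log2 changes. Prkcz, an atypical protein kinase C, had 0 UMIs in the Ccr2+ Lyz2-high cells, against 93.5 and 69.6 CPM in C1q-high macrophages, at least 195-fold lower. The neurotensin receptor Ntsr1 had 1 UMI in all, against 205 and 151 CPM in C1q-high macrophages, and was lower in the Ccr2+ Lyz2-high cells 1276-fold by the ratio of CPM (counting interval 229 to 50427). The secreted ribonuclease Rnase1 had 2 UMIs, against 229.5 and 166 CPM, lower 709.6-fold by the ratio of CPM (counting interval 196 to 5862).

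**Figure D3:**
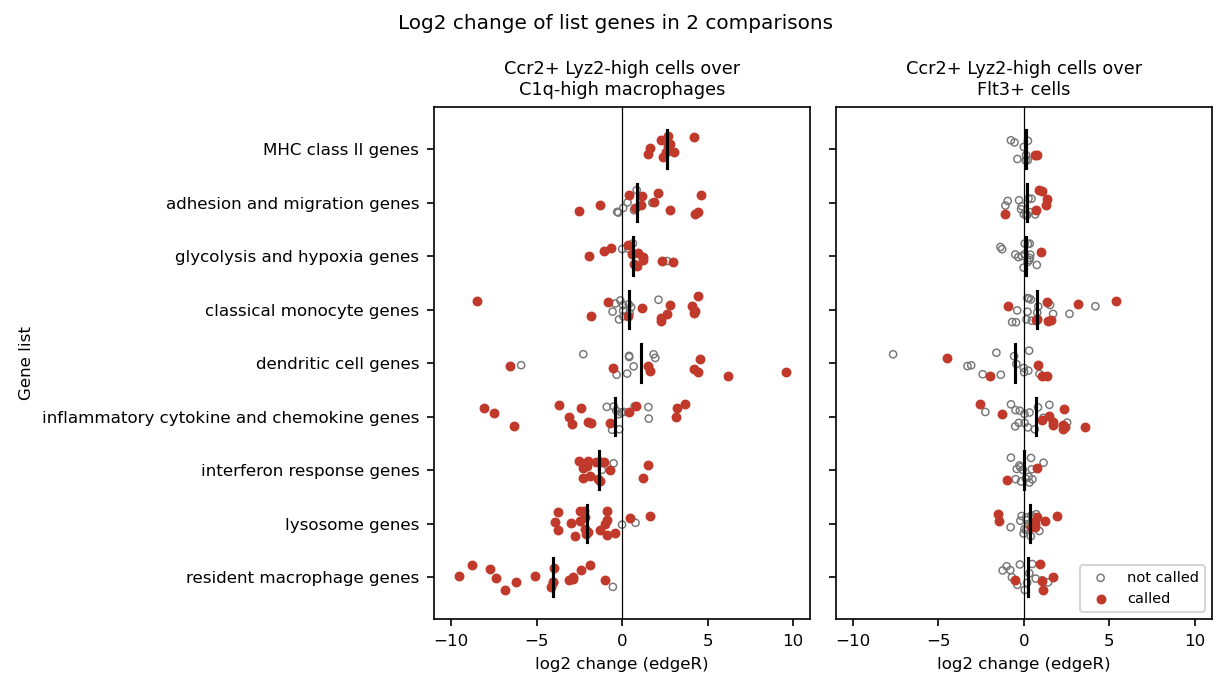
Log2 change (x axis, edgeR) of each tested gene of 9 lists (y axis) in the Ccr2+ Lyz2-high cells over C1q-high macrophages (left) and over Flt3+ cells (right); filled points were called, open points were not, and black bars are list medians. The position of genes with 0 UMIs in a population, such as Ccl22, depends on the fit. MHC class II genes have a median of 2.62 on the left and 0.12 on the right, and resident macrophage genes of -4.04 and 0.26.

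The next comparison asked how the same cells differ from the Flt3+ cells, which lie across the Flt3 bound. Of 10 MHC class II genes 8 were not called, while several inflammatory chemokines and innate receptors were higher in the Ccr2+ Lyz2-high cells and Irf8 and Zbtb46 were lower. Of 12272 genes, 608 (4.95%) were higher and 458 (3.73%) lower, or 8.69% in either direction by edgeR with the library block, with a median log2 change of 0.00. The count of 1066 was 252 with library left out of the model, 2099 without the 20 cells of a collagen-rich subcluster, and 530 when Flt3+ cells were also required to have a Ccr2 UMI and 10 Lyz2 UMIs. Fibroblast genes summed to 1897 and 509 CPM in the Ccr2+ Lyz2-high cells and 3189 and 1238 CPM in Flt3+ cells, with 2 of 8 called lower, and 4 of 8 mural genes were called lower too. Col3a1, Dpt, Pdgfrb, Rgs5 and Acta2 of these lost their call without the block, and against the Flt3+ cells with Ccr2 and Lyz2, where their log2 changes lay between -0.13 and 0.21. Their part in the other results was not tested. Of the genes named below, Ccl5, Ccl7, Cd7, Ceacam1, Cfp, Cxcl2, Eno3, Flrt3, Hp, Il1rn, Irf8, Itgax, Jchain, RT1-DMa, RT1-DMb, Spn, Trem1, Trem3 and Zbtb46 lost their call without the library block (adjusted p between 0.0641 and 0.197 by edgeR).

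Of 10 MHC class II genes 2 were higher and 0 lower, against 4.95% and 3.73% of all genes, with a median log2 change of 0.12. Cd74 had 31339 and 25077 CPM in the Ccr2+ Lyz2-high cells, against 31792 and 24431 CPM in Flt3+ cells (log2 change 0.11, SE 0.25, adjusted p = 0.83), and RT1-Da had 17952 and 14843 CPM in the Ccr2+ Lyz2-high cells, against 16595 and 13471 CPM in Flt3+ cells (log2 change 0.23, SE 0.22, adjusted p = 0.567). A missed threshold does not show that these levels were equal. The called genes were RT1-DMa (log2 change 0.79, SE 0.15, adjusted p = 0.0212) and RT1-DMb (log2 change 0.63, SE 0.13, adjusted p = 0.0329), and neither was called against the Flt3+ cells that also had Ccr2 and Lyz2.

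Dendritic cell genes divided into 3 higher and 2 lower of 18, where 4.95% of all genes were higher and 3.73% lower. Zbtb46, a transcription factor of conventional dendritic cells, had 11.7 and 18.3 CPM in the Ccr2+ Lyz2-high cells, against 49.4 and 81.4 CPM in Flt3+ cells (log2 change -2.0, SE 0.14, adjusted p = 0.00183). Irf8, which directs a dendritic cell branch and monocytes, had 0 and 1.8 CPM in the Ccr2+ Lyz2-high cells, against 16.5 and 23.1 CPM in Flt3+ cells (log2 change -4.47, SE 0.68, adjusted p = 0.0116, and -3.4 without fascia replicate 1, where it had 0 UMIs). Both were lower in each library, and the Irf8 call was lost against the Flt3+ cells with Ccr2 and Lyz2. Itgax was higher, with 26.3 and 60.9 CPM in the Ccr2+ Lyz2-high cells, against 14.2 and 21.3 CPM in Flt3+ cells (log2 change 1.37, SE 0.20, adjusted p = 0.0111). Cd80 had 208 and 264 CPM in the Ccr2+ Lyz2-high cells, against 134 and 136 CPM in Flt3+ cells and Ccl17 378 and 723 CPM in the Ccr2+ Lyz2-high cells, against 583 and 548 CPM in Flt3+ cells, and neither was called. Among myeloid transcription factors, 7 of 24 were higher and 2 lower. Cebpb, a factor of monocytes and macrophages, had 1410.3 and 1104 CPM in the Ccr2+ Lyz2-high cells, against 435 and 229 CPM in Flt3+ cells (log2 change 2.05, SE 0.28, adjusted p = 0.00886). Tcf4, known for plasmacytoid dendritic cells, had 140.2 and 132 CPM in the Ccr2+ Lyz2-high cells, against 423 and 554 CPM in Flt3+ cells (log2 change -1.73, SE 0.13, adjusted p = 0.00241). Spi1, the master regulator PU.1 of myeloid cells, had 250.3 and 258 CPM in the Ccr2+ Lyz2-high cells, against 246 and 213 CPM in Flt3+ cells and was not called.

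Some macrophage and classical monocyte genes were higher, where 4.95% of all genes were higher and 3.73% lower. Resident macrophage genes had 4 of 18 higher and 1 lower, classical monocyte genes 7 of 24 higher and 1 lower. Non-classical monocyte genes went the other way, with 1 of 14 higher and 3 lower. The lower ones were Eno3 (-3.44, SE 0.67), Ceacam1 (-2.81, SE 0.49) and Spn (-1.48, SE 0.22), as log2 changes. Csf1r had 165 and 192 CPM in the Ccr2+ Lyz2-high cells, against 73.3 and 106 CPM in Flt3+ cells (log2 change 1.1, SE 0.15, adjusted p = 0.00957). Cd14 had 138 and 243 CPM in the Ccr2+ Lyz2-high cells, against 62.2 and 71.3 CPM in Flt3+ cells (log2 change 1.59, SE 0.18, adjusted p = 0.00514). The integrin Itgam, CD11b, had 252 and 242 CPM in the Ccr2+ Lyz2-high cells, against 123 and 99.5 CPM in Flt3+ cells (log2 change 1.27, SE 0.12, adjusted p = 0.00347). These 3 genes were higher in both libraries, with log2 changes of 1.10 to 1.59 in the joint fit of both. Ly6c was not called, with 13.8 and 117 CPM in the Ccr2+ Lyz2-high cells, against 6.25 and 34.1 CPM in Flt3+ cells. Hp, haptoglobin, had 4.78 and 28.8 CPM in the Ccr2+ Lyz2-high cells, against 0 and 0.735 CPM in Flt3+ cells (log2 change 5.4, SE 1.09, adjusted p = 0.0292), and stood at 212 and 172 CPM in the Vcan and Ly6c subcluster described below, against 0.299 and 0.778 CPM in the members outside it and outside a collagen-rich one. Of 19 Fc receptor and innate sensor genes 9 were higher and 1 lower, with Tlr2 (log2 change 1.4, SE 0.21, adjusted p = 0.0111) among the higher ones and the inhibitory Fc receptor Fcgr2b (log2 change -1.23, SE 0.29, adjusted p = 0.0485) the lower one. The largest called log2 changes of that list were those of Trem1 (2.35, SE 0.47) and Trem3 (2.16, SE 0.50). Both calls were lost without the Vcan and Ly6c subcluster (adjusted p = 0.121 and 0.335 by edgeR). They were also lost against the Flt3+ cells with Ccr2 and Lyz2 (adjusted p = 0.068 and 0.0931 by edgeR). The Tlr2 and Fcgr2b calls were not followed under the alternatives. Complement genes other than C1q had 6 of 13 higher and 0 lower, among them properdin, Cfp, with 1123 and 762 CPM in the Ccr2+ Lyz2-high cells, against 536 and 315 CPM in Flt3+ cells (log2 change 1.27, SE 0.13, adjusted p = 0.00425).

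Chemokine and cytokine genes had 9 of 26 higher and 2 lower, against 4.95% and 3.73% of all genes. Cxcl2, a chemokine for neutrophils, had 290.4 and 429.9 CPM in the Ccr2+ Lyz2-high cells, against 77.8 and 73.9 CPM in Flt3+ cells (log2 change 2.31, SE 0.35, adjusted p = 0.0115). Ccl7, a monocyte chemokine, had 156 and 384 CPM in the Ccr2+ Lyz2-high cells, against 45.7 and 59.6 CPM in Flt3+ cells (log2 change 2.34, SE 0.37, adjusted p = 0.0136). Il1rn had 21.8 and 47.1 CPM in the Ccr2+ Lyz2-high cells, against 5.96 and 8.27 CPM in Flt3+ cells (log2 change 2.38, SE 0.24, adjusted p = 0.00378). Each of these 3 was higher in both libraries of the Ccr2+ Lyz2-high cells than in either of the Flt3+ cells. Areg was higher too (3.55, SE 0.59, and 4.35 and 2.44 without fascia replicates 1 and 2 on the log2 scale) and the T cell chemokine Ccl5 lower (-2.55, SE 0.57, and -1.79 and -3.64 without fascia replicates 1 and 2), a call lost when marked doublets were removed and against the Flt3+ cells with Ccr2 and Lyz2. Il1b had 1549 and 2146 CPM in the Ccr2+ Lyz2-high cells, against 2427 and 1819 CPM in Flt3+ cells and Tnf 4.51 and 24.6 CPM in the Ccr2+ Lyz2-high cells, against 20.4 and 19.8 CPM in Flt3+ cells, and both were not called, with the order of the groups opposite in the 2 libraries. None of the 13 tissue handling response genes, which enzymatic digestion is known to induce, was called.

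Among all genes, those with the largest changes included Flrt3, a cell adhesion protein, with 42.5 and 74.5 CPM in the Ccr2+ Lyz2-high cells, against 9.94 and 11.9 CPM in Flt3+ cells (log2 change 2.62, SE 0.36, adjusted p = 0.00889), and Psd3, an exchange factor for Arf6, with 228 and 292 CPM in the Ccr2+ Lyz2-high cells, against 57.4 and 67.5 CPM in Flt3+ cells (log2 change 2.17, SE 0.12, adjusted p = 0.000698). Samsn1, an adaptor of immune cells, had 163 and 152 CPM in the Ccr2+ Lyz2-high cells, against 37.8 and 35.4 CPM in Flt3+ cells (log2 change 2.23, SE 0.15, adjusted p = 0.00179), and coagulation factor V, F5, had 78.8 and 50.4 CPM in the Ccr2+ Lyz2-high cells, against 19 and 13.8 CPM in Flt3+ cells (log2 change 2.12, SE 0.31, adjusted p = 0.0111). These 4 genes were higher in both libraries. Lower genes included Runx2, a transcription factor also used by plasmacytoid dendritic cells, with 13 and 22.8 CPM in the Ccr2+ Lyz2-high cells, against 117 and 180.4 CPM in Flt3+ cells (log2 change -2.95, SE 0.14, adjusted p = 0.000692), and Jchain, the joining chain of IgM and IgA, with 0.265 and 1.8 CPM in the Ccr2+ Lyz2-high cells, against 79.2 and 82.2 CPM in Flt3+ cells (log2 change -6.36, SE 1.06, adjusted p = 0.0156, and -5.23 and -7.59 without fascia replicates 1 and 2). Rnase6, an antimicrobial ribonuclease, had 0.796 and 5.1 CPM in the Ccr2+ Lyz2-high cells, against 73.3 and 107 CPM in Flt3+ cells (log2 change -4.89, SE 0.41, adjusted p = 0.00271, and -4.18 and -6.25 without fascia replicates 1 and 2). Hs3st3a1, a heparan sulfate sulfotransferase, had 0 UMIs in the Ccr2+ Lyz2-high cells, against 52.5 and 68.5 CPM in Flt3+ cells, at least 153-fold lower. DESeq2 with the same block did not call it (adjusted p = 0.245).

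Against the Slpi+ Fcna+ macrophages, 1937 genes (15.8%) were higher and 2023 (16.5%) lower of 12272, or 32.3%, by the same edgeR fit. Both macrophage comparisons use the same Ccr2+ Lyz2-high libraries, so their values are given side by side and not as independent results. All 10 MHC class II genes were again higher, with a median log2 change of 3.6, and 17 of 18 resident macrophage genes lower, with a median of -4.28. Cd74 had 31339 and 25077 CPM in the Ccr2+ Lyz2-high cells, against 3299 and 2168 CPM in Slpi+ Fcna+ macrophages (log2 change 3.49, SE 0.27, adjusted p = 0.000137). Cd163 had 4.25 and 3.3 CPM in the Ccr2+ Lyz2-high cells, against 1833 and 1833 CPM in Slpi+ Fcna+ macrophages (log2 change -8.8, SE 0.19, adjusted p = 1.1e-06). The Cd74 level was lower in this macrophage population than in the C1q-high one in both libraries. C6, a component of the terminal complement pathway, had 0.531 and 1.2 CPM in the Ccr2+ Lyz2-high cells, against 514 and 436 CPM in Slpi+ Fcna+ macrophages (log2 change -9.01, SE 0.56, adjusted p = 5.6e-05, and -8.25 and -9.46 without fascia replicates 1 and 2). Bcl11a, a transcription factor of lymphoid and dendritic lineages, had 66.6 and 45.6 CPM in the Ccr2+ Lyz2-high cells, against 1.8 and 3.46 CPM in Slpi+ Fcna+ macrophages (log2 change 4.7, SE 0.32, adjusted p = 7.8e-05, and 3.72 and 5.27 without fascia replicates 1 and 2). Lysosome genes had 3 of 22 higher and 17 lower, and interferon response genes 2 of 16 higher and 13 lower.

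The Ccr2+ Lyz2-high cells were then divided by Leiden clustering (leidenalg, resolution 0.5) into 7 subclusters, described without tests because clustering used these genes. Fascia replicate 1 lay mostly in subcluster 1 (98 cells, 37.4%) and 2 (97 cells, 37.0%), which held 22 (8.59%) and 17 (6.64%) cells of replicate 2. Replicate 2 lay mostly in subcluster 3 (76 cells, 29.7%, against 29 in replicate 1), 5 (52 cells, 20.3%, against 5) and 4 (46 cells, 18.0%, against 16). Whether a subcluster is a kind of cell or a library cannot be told apart where 1 library dominates it. Cd74 was between 27535 and 41737 CPM in subclusters 1, 2, 3, 4 and 6, and stood at 6701 CPM in subcluster 5 and at 14840.0 CPM in subcluster 7.

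Subcluster 5, of 57 cells, was classical monocyte-like by its markers, since Plac8, Vcan and Ly6c were among its 10 leading genes, next to the ficolin Fcnb. Its 5 cells in fascia replicate 1 and 52 in replicate 2 had Ly6c at 560.4 and 635 CPM, against 2.09 and 7.0 CPM in the 441 cells outside subclusters 5 and 7. Vcan was at 1059 and 1165 CPM, against 3.29 and 11.3 CPM. Both genes were far above the level of the other cells in each library. Plac8 was at 4109.8 and 4139 CPM, against 10.5 and 61.8 CPM, and the matrix gene Fn1, fibronectin, at 3637 and 2326 CPM, against 144 and 49.8 CPM. Lyz2, a gene of the rule, was at 32779 and 24311 CPM, against 19928 and 12428 CPM. MHC class II ran the other way. RT1-Da was at 2789.7 and 3278 CPM, against 19337 and 17720.3 CPM, and Il1b at 311 and 366 CPM, against 1659 and 2589.7 CPM. Ccr2, which chose the cells, was at 573 and 638 CPM, against 591 and 508 CPM. None of the 57 cells was marked as a doublet.

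The other subclusters were led by genes of several kinds. Subcluster 1 was led by the endothelial genes Plvap (228 CPM, against 6.71 in the remaining members), Ptprb and Emcn, and 1 and 2 of its cells were marked as doublets. These are summed levels, and how many of its cells held a UMI of these genes was not examined. The same subcluster had Cd74 at 36519 CPM, against 26342 in the remaining members, and Lyz2 at 20905 CPM, against 15572. Endothelial markers summed to 104 and 25.2 CPM in all Ccr2+ Lyz2-high cells, against 569 and 951 CPM in cells without a Ptprc UMI. Subcluster 2 was led by the cell cycle genes Mki67 (60.5 CPM, against 0.721) and Cenpf and by P2ry12, a purinergic receptor. The Mki67 level rests on few cells, since 6 of 246 and 4 of 195 cells outside subclusters 5 and 7 had an Mki67 UMI and most of the 97 and 17 cells of subcluster 2 had none. Subcluster 3 was led by the chemokine Cxcl3 (94.9 CPM, against 17.5) and included the urokinase receptor Plaur (1275 CPM, against 464) and Nfkb1. Subcluster 4 was led by Ccl7 (855 CPM, against 179.9) and heat shock genes such as Hsp90aa1 (1107 CPM, against 423), subcluster 6 by Ms4a4a (801 CPM, against 7.59) with Slamf7 and Ccl22. Subcluster 7, of 20 cells, was led by the fibroblast genes Igfbp5, Dcn and Col1a1, and 17 of its cells were marked as doublets. Dcn, decorin, was at 5570.4 and 694 CPM there, against 77.1 and 14.4 CPM in the 441 cells outside subclusters 5 and 7.

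**Figure D4:**
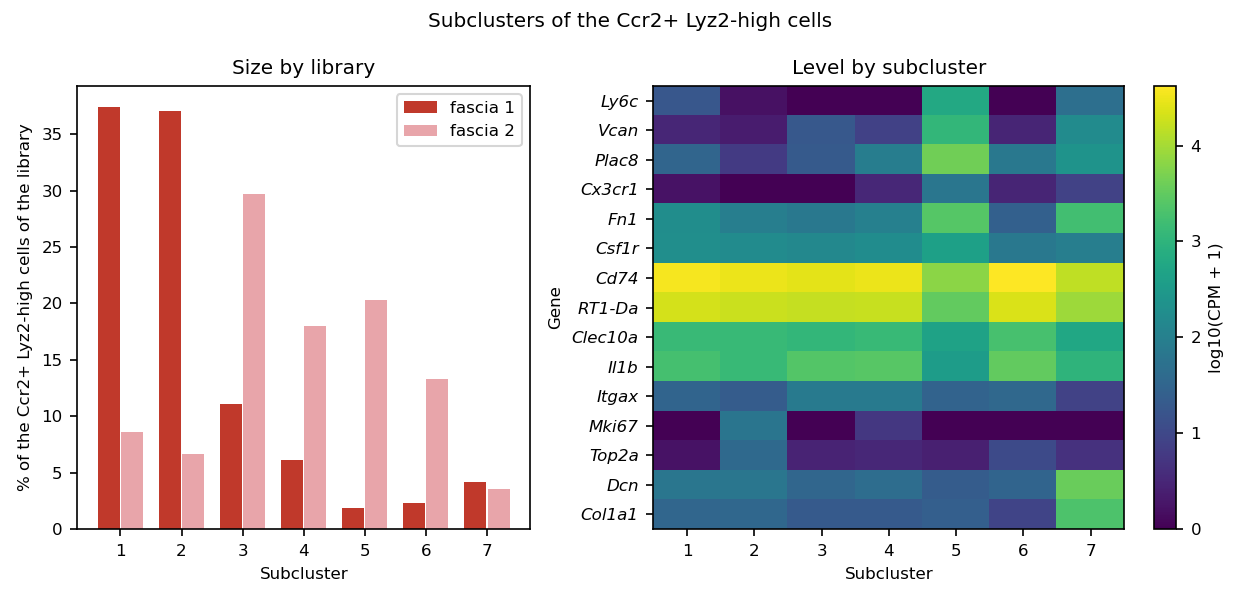
Left, share of the Ccr2+ Lyz2-high cells of each fascia library (y axis, %) in 7 subclusters (x axis), bars by library; right, log10(CPM + 1) of 15 genes by subcluster. Subcluster 5 holds 1.91% of replicate 1 and 20.3% of replicate 2 and combines Ly6c and Vcan with the lowest Cd74.

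The C1q bound was examined by grouping all fascia cells with at least 10 Lyz2 UMIs, no Flt3 or Cd3 UMI and fewer than 5 of Slpi by their C1q UMIs, without regard to Ccr2. This is a description of cells, with 148, 133, 37, 62 and 499 cells in replicate 1 and 195, 132, 25, 131 and 471 in replicate 2 for 0, 1 to 4, 5 to 19, 20 to 99 and 100 or more C1q UMIs. RT1-Da was at 17939 and 14153 CPM in cells with 0 C1q UMIs and still at 13962 and 10083 CPM in cells with 20 to 99, and at 1492 and 2326 CPM at 100 or more. Ccr2 was at 552 and 486 CPM at 0 C1q UMIs, at 302 and 113 CPM at 20 to 99 and at 12.9 and 7.80 CPM at 100 or more. The macrophage gene Cd163 ran against it, with 5.99 and 3.79 CPM at 0 C1q UMIs, 564 and 1120.2 CPM at 20 to 99 and 1923 and 1951 CPM at 100 or more. Cells with 20 to 99 C1q UMIs thus held MHC class II, Ccr2 and Cd163 RNA in the same group. How many of them are doublets was not tested.

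**Figure D5:**
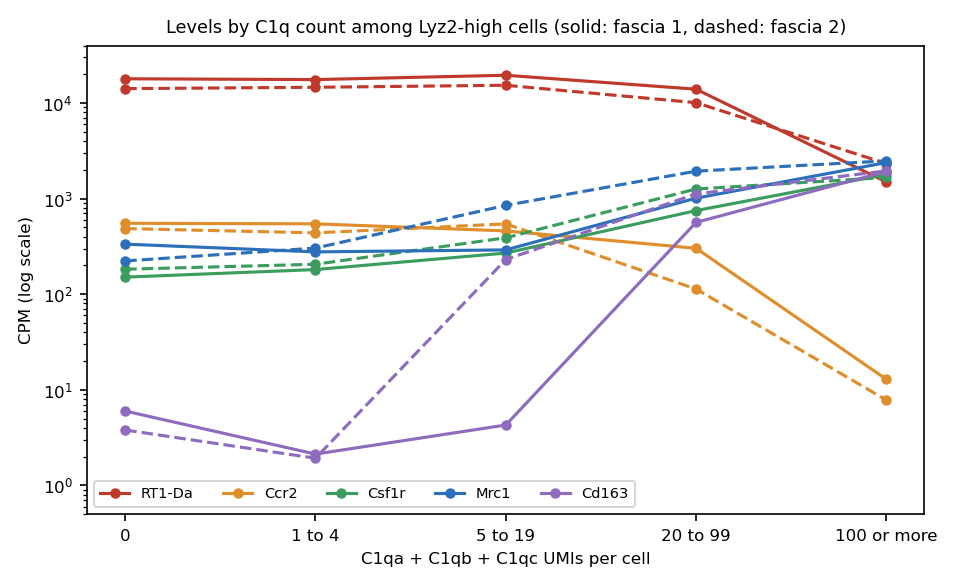
CPM (y axis, log scale) of 5 genes in Lyz2-high fascia cells grouped by their C1q UMIs (x axis), solid lines for fascia replicate 1 and dashed for replicate 2. RT1-Da and Ccr2 are lowest and Mrc1, Csf1r and Cd163 highest in cells with 100 or more C1q UMIs in both libraries.

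Over the 1491 and 1812 fascia cells with at least 10 Lyz2 UMIs that reached 5000 UMIs, inside and outside the 4 populations, the gene whose level followed Ccr2 most closely from cell to cell was Lsp1, a leukocyte actin-binding protein (Spearman rho 0.71 and 0.59 in replicates 1 and 2). Hopx, a homeodomain protein without DNA binding, came next (0.67 and 0.56), and Gm2a, a lysosomal lipid-binding protein (0.65 and 0.51), S100a6 (0.53 and 0.50) and the actin regulator Coro1a (0.62 and 0.50) were among the first 10. Of 5241 genes ranked, RT1-Da reached 0.70 and 0.47. These cells share libraries and were chosen by Lyz2, so the values describe such cells only.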

How the data were processed

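Raw UMI counts per gene and cell barcode were used as deposited. The authors used STAR within Cell Ranger 6.0.1, per the submitters' processing notes, which name the builds mRatBN7.2 and GRCh38.p13, while the file headers give Cell Ranger 7.0.0. The table held 30560 genes, 13 of them mitochondrial. Barcodes with at least 500 genes and no more than 20% mitochondrial UMIs were kept, 37722 in all. Doublets were marked with Scrublet in Scanpy 1.11.5 and kept, and leaving them out was an alternative. Where its threshold marked too few cells in skin, the highest scores were marked instead.

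Counts were summed per library and gated population and compared in 1 edgeR 4.0.16 fit (R 4.3.3) of 4 populations in the 2 fascia libraries, with TMM scaling, filterByExpr, library as a block and Benjamini-Hochberg adjustment over 12272 genes at 0.05. The scripts were tested on simulated data. The populations of a library come from the same suspension, and the deviations of same-library sums from their group means correlated by 0.46, 0.323 and 0.464. DESeq2 1.42.0, other scaling, filters, gates and cell sets were alternatives. Leaving out the subclusters and requiring Ccr2 and Lyz2 in Flt3+ cells were chosen after seeing the data. Members and gene lists were chosen with earlier results of these data known. Of 388 list genes 351 matched a symbol.

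Genes were named by a rule. In each direction it took the 10 called genes that changed most and had a mean of at least 50 CPM in the higher population, the same direction in both libraries and a level no lower than in Ptprc-negative fascia cells. It added up to 4 called genes per list in the first comparison and 3 in the others, and genes always described. A few list members were named for their role after their values were seen. Subclusters used 1500 variable genes, 20 components, 15 neighbours and leidenalg 0.10.2. Levels across depths were compared after thinning each cell to 5000 UMIs. Binomial intervals are exact at 95%, and a count of 0 was read as at most 3 counts. PCR duplicates are removed by the UMIs, and intervals cover counting error only. Promoter sequences are RefSeq's on GRCr8, a build other than that of the files, so no coordinates were joined.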

Additional observations from a re-analysis of the deposited data

How the results depend on the processing

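The fascia-minus-skin difference in the share of Ccr2+ Lyz2-high cells kept its direction under every alternative, between 3.17 percentage points (C1q below 2) and 3.93 (C1q below 10) of kept cells, and from 3.64 to 3.83 when 1 library was left out. The count of genes called against Flt3+ cells was 1066, against 252 with no replicate block, 2099 without the collagen subcluster and 530 with Flt3+ cells that also had Ccr2 and Lyz2, the cause not being tested. Against C1q-high macrophages the count was 4085, with 3010.0 under no replicate block and 3091 by DESeq2. Against Slpi+ Fcna+ macrophages it was 3960.0, with 2980.0 under no replicate block and 3021 by DESeq2. Among genes called in the edgeR fit or under the alternative, the log2 changes of 5 results changed sign. Against C1q-high macrophages Acta2 stood at 0.006 with marked doublets removed and Ly6c at -0.041 without the Vcan and Ly6c subcluster. Against Flt3+ cells that also had Ccr2 and Lyz2, Dpt stood at 0.214 and Cd79a at 0.148. Against Slpi+ Fcna+ macrophages Acta2 stood at 1.721 with marked doublets removed, and the cause was not tested for any of them. Genes that were not called were left out of this count, and some of them changed sign when a library was left out. One was Cx3cr1 against C1q-high macrophages, with 1.76 in the fit and -0.474 without fascia replicate 2. The mean of the 2 libraries' median MHC class II share was 7.58% of UMIs, 7.45% at 2000 UMIs per cell and 7.65% without marked doublets. Leaving out a fascia library left no residual degrees of freedom, so it gave values and no calls. Of these values, 111 of 198, 98 of 168 and 86 of 168 in the 3 comparisons moved by more than 1 standard error. With 2 libraries, differences within the spread between them were not detectable.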

Other observations

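Of 8 T and NK cell genes tested against the C1q-high macrophages 3 were higher in the Ccr2+ Lyz2-high cells, 1 was lower and 4 were not called, in cells that the rule required to have no Cd3 UMI. The shares over all genes were 16.4% higher and 16.9% lower. Il7r, the interleukin-7 receptor, had 107 and 121 CPM in the Ccr2+ Lyz2-high cells, against 3.24 and 3.55 CPM in C1q-high macrophages (log2 change 5.19, SE 0.25, adjusted p = 1.9e-05). Cd7 had 98.5 and 138 CPM in the Ccr2+ Lyz2-high cells, against 25.9 and 43.2 CPM in C1q-high macrophages (log2 change 1.92, SE 0.23, adjusted p = 0.000862), and the adhesion molecule Cd2 had 43.5 and 16.8 CPM in the Ccr2+ Lyz2-high cells, against 3.64 and 1.54 CPM in C1q-high macrophages (log2 change 3.64, SE 0.22, adjusted p = 4.0e-05). All 3 were higher in both libraries by edgeR. The lower one was Lck, a kinase of T cell receptor signalling, with 1.33 and 1.8 CPM in the Ccr2+ Lyz2-high cells, against 5.39 and 4.63 CPM in C1q-high macrophages (log2 change -1.54, SE 0.41, adjusted p = 0.0247), and its call was lost by DESeq2 (adjusted p = 0.113) and with only the 2 populations compared in the edgeR fit (adjusted p = 0.0511). The cytotoxic gene Nkg7 had 0 and 0.60 CPM in the Ccr2+ Lyz2-high cells, against 4.99 and 1.54 CPM in C1q-high macrophages and was not called, and Prf1, perforin, and Klrb1 had 0 UMIs in the Ccr2+ Lyz2-high cells. Against the Flt3+ cells 0 of the 8 T and NK cell genes were higher and 3 lower, where 3.73% of all genes were lower. Cd7, one of those 3, had 328 and 324 CPM in Flt3+ cells (log2 change -1.39, SE 0.22, adjusted p = 0.0133 by edgeR). Its call was lost without the library block (adjusted p = 0.113). The part of other cells in these values was not tested.

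Cells with at least 1 Ccr2 UMI that met the rule except for 20 or more C1q UMIs numbered 59 and 47 in fascia replicates 1 and 2. They had Cd74 at 24321 and 26737 CPM and Cd163 at 473 and 489 CPM, beside 31339 and 25077 CPM of Cd74 and 4.25 and 3.30 CPM of Cd163 in the Ccr2+ Lyz2-high cells. Cells with 5 to 19 C1q UMIs numbered 35 and 17 and had Cd163 at 4.46 and 94.3 CPM.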
